A study of Homo sapiens with 63 samples.

Results

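The genes described here encode the proteins of the cytosolic ribosome. Members were all probes whose single symbol in the platform annotation was RPL or RPS with a number and at most one letter A or X, or RPLP0, RPLP1, RPLP2 or RPSA. Pseudogenes, kinases of the RPS6K family and paralogs whose symbols end in L or L1 were left out. The rule took 113 of 47217 probes, for 68 of the 77 human genes with such a symbol, and 111 of these probes, for 67 genes, were detected often enough to be tested among 30716 probes. They comprised 68 probes of large subunit proteins and 43 of small subunit proteins, and 106 were detected on all 63 arrays. The other genes with such a symbol were not analysed here.

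Total RNA of 9 small cell lung cancer (SCLC) cell lines was hybridized to Illumina HT-12 v4 arrays, which read each transcript on beads that carry a gene probe, with 1 array per line and condition. The lines were H69, H128, H146, H187, H209 and H526, called H lines below, and DMS53, DMS114 and DMS153 (D53, D114 and D153 in the labels), called DMS lines. Every line was given vehicle (Con), the PARP inhibitor veliparib at 5 (A5) or 50 µmol/L (A50), cisplatin at its own IC50 of 0.4 to 14.5 µmol/L (C+0), that cisplatin with veliparib at 5 (C+5) or 50 µmol/L (C+50), or ionizing radiation of 2 Gy (Rad). The replicate is the cell line, so a change is the mean difference within 9 lines, and the sources disagree on the length of exposure. Each line is 1 established culture. By the study's methods, DNA typing by short tandem repeats matched each line to its reference save H128, whose pattern matched other lines, so the identity of H128 is in doubt. Without H128, 10 members were called for A50, 14 for C+50, 16 for radiation in the H lines and 0 for radiation over the remaining 8 lines, against 10, 14, 17 and 3 with it. The share of all probes called without H128 was not counted. In the design, all 6 comparisons with Con share the same 9 Con arrays.

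Of the 6 neuroendocrine markers measured, CHGA, INSM1, NCAM1 and SYP were detected in all 9 Con arrays, whereas DDC and GRP were each missed in 3 lines. Of the markers of non-neuroendocrine SCLC, POU2F3 was detected in H526 and DMS153, and YAP1 in DMS114 alone. Among markers of other cells, PTPRC and CD3E of leucocytes were detected in no line, LYZ in 1 and CD14 in 9. Of fibroblast genes, COL1A1 and LUM were detected in DMS114 alone, and COL1A2, DCN and THY1 in 5 lines each. Between 19124 and 22330 probes were detected per array. Each array was most like another array of its own line (63 of 63 arrays).

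Ribosomal proteins clothe the rRNA of the small subunit, which decodes mRNA, and of the large subunit, which forms peptide bonds. They are needed in near equal amounts, and their mRNAs are among the most abundant of a growing cell. Most of these mRNAs begin with a 5′ terminal oligopyrimidine (TOP) tract, a C followed by further pyrimidines, through which mTOR signalling and the RNA-binding protein LARP1 set their translation. Free RPL5 and RPL11, bound to 5S rRNA, hold back MDM2 when ribosome assembly fails. The genes have many processed pseudogenes, so that a probe may also read near-identical transcripts, and the values of single probes are uncertain to that extent. In bulk RNA, fewer cells and less RNA per cell cannot be told apart.

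Promoter windows of RefSeq (GRCh38.p14) were matched by Entrez gene identifier for 58 of the 68 genes, with 69 start sites. A C followed by at least 4 pyrimidines, begun within 5 bases of the start, stood at 54 of these 69 starts (78.3%), against 7408 of 35116 starts of all genes (21.1%). The annotated first base itself was C at 69.6% of member starts and at 14.7% of all starts. In the whole 300-base window, CCGGAAG on either strand was present at 36.2% of member starts and 10.3% of all starts, and ATGGCGG at 18.8% and 5.55%. These matches describe letters in a window and were not tied to any change below. The windows printed here are those of members on which the results turn, 50 bases before and 25 from the start, on the coding strand, with the pyrimidine tract in capitals. Each window is the first listed start of its gene, and 8 member genes had over 1 start. The RPS29 start printed held no such tract, which does not describe any other start of that gene.
RPS29 (chr14:49598686-49598760, minus strand): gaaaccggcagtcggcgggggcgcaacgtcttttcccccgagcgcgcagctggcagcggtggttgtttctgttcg
RPS23 (chr5:82278330-82278404, minus strand): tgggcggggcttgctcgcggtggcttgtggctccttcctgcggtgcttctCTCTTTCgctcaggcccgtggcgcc
RPL13A (chr19:49487558-49487632, plus strand): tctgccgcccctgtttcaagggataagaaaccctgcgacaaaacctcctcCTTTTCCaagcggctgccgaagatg
RPL28 (chr19:55385882-55385956, plus strand): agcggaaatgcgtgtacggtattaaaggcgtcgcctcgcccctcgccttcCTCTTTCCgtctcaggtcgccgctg
RPL29 (chr3:51995871-51995945, minus strand): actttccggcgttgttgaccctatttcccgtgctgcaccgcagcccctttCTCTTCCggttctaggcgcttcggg
RPS28 (chr19:8321446-8321520, plus strand): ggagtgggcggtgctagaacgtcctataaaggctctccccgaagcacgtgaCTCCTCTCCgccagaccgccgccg
RPLP1 (chr15:69452768-69452842, plus strand): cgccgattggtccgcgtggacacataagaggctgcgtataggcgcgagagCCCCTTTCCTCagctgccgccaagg

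Veliparib at 50 µmol/L moved single ribosomal protein probes up or down and left most of the class near its control level. Of the 111 probes, 6 rose and 4 fell, which is 9.01%, where 11.7% of all 30716 probes were called (5.45% higher and 6.22% lower). A call is an adjusted p under 0.05 in limma, where each cell line forms a block. The median change of the members was 0.03 on the log2 scale, that of all probes 0.00, and the members' changes spanned -0.26 to 0.47. For 100 of the 111 probes the 95% interval of the change lay within 0.2 of 0, as it did for 88.6% of all probes. The small subunit contributed 3 rises and no fall among its 43 probes, and the large subunit 3 rises and 4 falls among its 68.

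**Figure D1:**
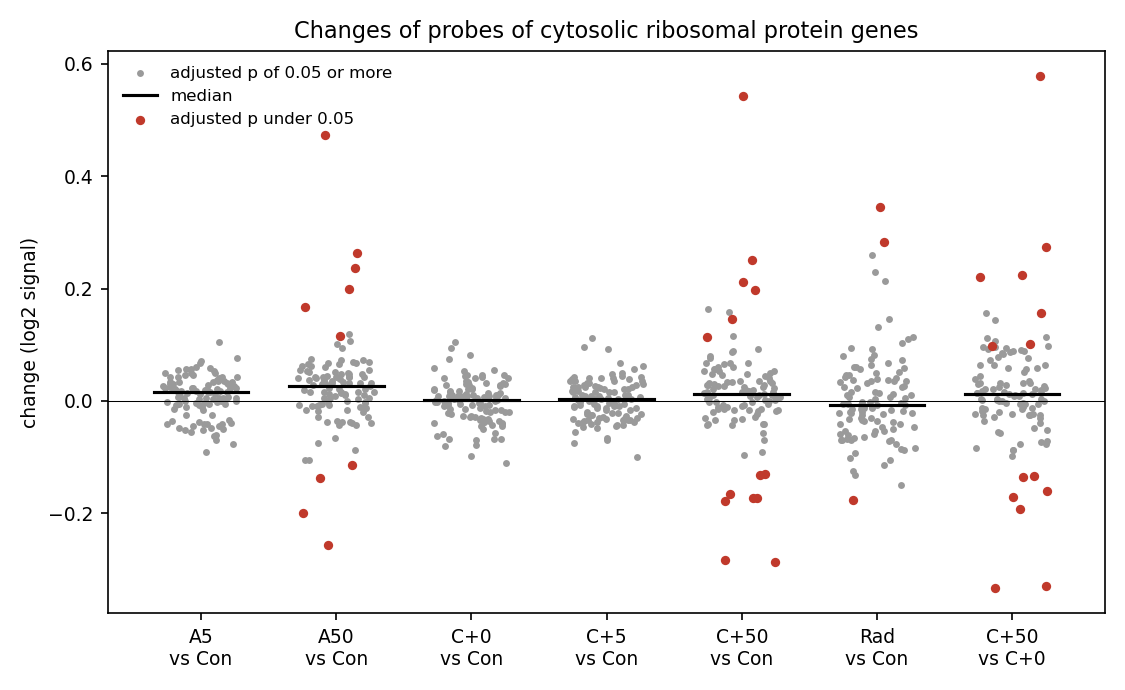
Log2 change of each of 111 ribosomal protein probes (points) in 7 comparisons, with called probes in red and the median of the members as a bar. The medians lie near 0 in every comparison, and the red points of A50 and C+50 spread to both sides, led by RPS29 at 0.47 and 0.54.

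RPS29, a zinc-binding protein of the small subunit head that is mutated in Diamond-Blackfan anaemia, showed the largest rise of any member. Its probe ILMN_2298818 read between 7.11 and 7.94 log2 units over the 9 Con arrays (median 7.38) and between 7.37 and 8.25 with A50 (median 7.79). The ranges over lines overlapped, but the signal rose within each line, by 0.27 in DMS114 at the least and 0.75 in H146 at the most. The mean change was 0.47 (standard error 0.05, adjusted p = 8.18e-10 from limma, n = 9 lines), a 1.39-fold rise. With background correction by neqc the change was 0.77, and neqc widens the changes of dim probes. The platform has 3 other probes for RPS29, and none was called. ILMN_1694742, whose median was 13.91 in Con, changed by 0.00 (95% interval -0.06 to 0.06), ILMN_1738243 by 0.00 (-0.06 to 0.06) and ILMN_2415722 by 0.07 (0.01 to 0.13). The median of ILMN_1694742 is near the highest value of the normalized scale, 14.10, so a rise could be missed at that probe. The annotation ties ILMN_2298818 to the same transcript record as ILMN_2415722 and to another record than the remaining pair of probes.

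**Figure D2:**
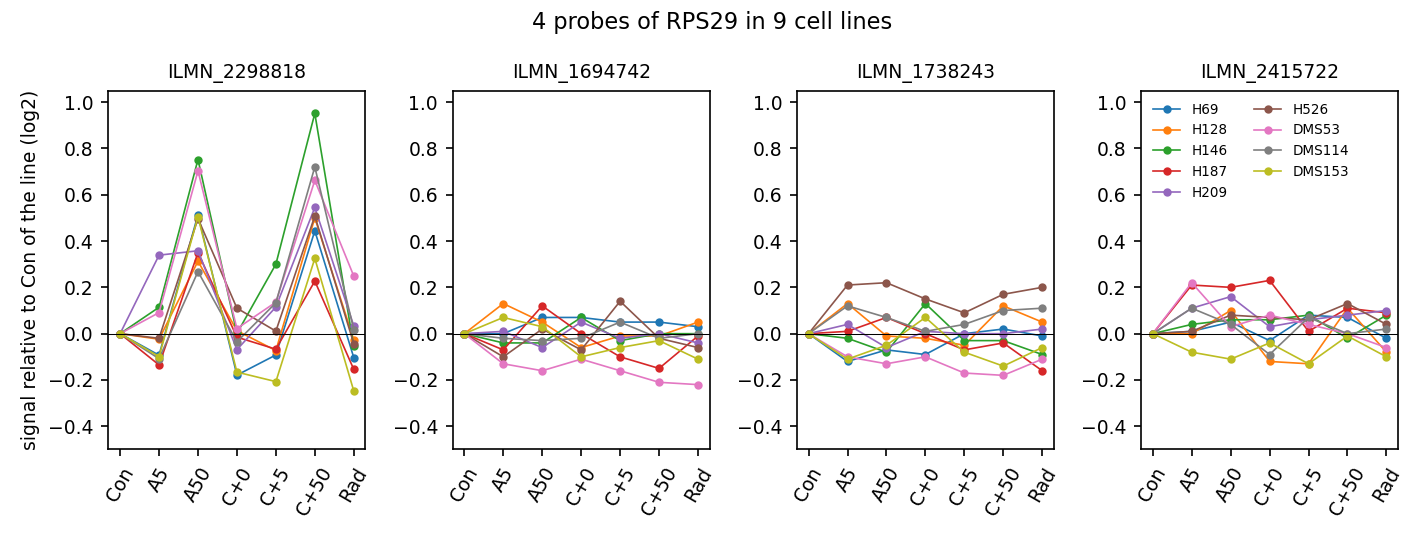
Signal of the 4 RPS29 probes in each condition, as the log2 difference from Con of the same line, with 1 line drawn per cell line. In the first panel all 9 lines rise at A50 (0.27 to 0.75) and at C+50 (0.23 to 0.95), while the other 3 probes stay near 0.

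The other members that rose with A50 were components of either subunit. RPS15A, a protein of the small subunit body, read 10.02 to 11.37 in Con (median 10.68) and 10.25 to 11.64 with A50 (median 10.93) at ILMN_2255310. It was higher with A50 in 9 of 9 lines, by 0.11 to 0.35, with a mean change of 0.26 (standard error 0.03, adjusted p = 5.37e-08). Its other probes, ILMN_1787949 and ILMN_2337241, changed by 0.03 and -0.04 and were not called (adjusted p = 0.534 and 0.659). RPL13A, a large subunit protein often used as a reference gene and a part of the interferon-gamma-activated GAIT complex, read 10.65 to 11.92 in Con (median 11.09) and 10.86 to 12.19 with A50 (median 11.49). It rose in 9 of 9 lines, by 0.07 to 0.40, with a mean of 0.24 (standard error 0.04, adjusted p = 3.15e-06). RPS23, which lies at the decoding centre, read 7.11 to 10.30 in Con (median 9.34) and 7.16 to 10.63 with A50 (median 9.66), a mean rise of 0.20 in 9 of 9 lines (standard error 0.03, adjusted p = 8.36e-06). In all 3 genes the lines' ranges overlapped between Con and A50. RPL12, at the base of the large subunit stalk, was called at both of its probes, by 0.17 (ILMN_1653469, adjusted p = 0.00138) and 0.12 (ILMN_2116366, adjusted p = 0.00541), each in 8 of 9 lines.

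The 4 member probes that fell with A50 all belonged to the large subunit, which holds 68 of the 111 probes. A difference between the subunits was not tested. RPL28 read 7.25 to 8.53 in Con (median 7.96) and 7.11 to 8.27 with A50 (median 7.62), and fell by 0.26 (standard error 0.04, adjusted p = 8.80e-06). It was lower in 8 of 9 lines and 0.18 higher in DMS53. RPL6 read 8.77 to 10.49 in Con (median 9.99) and 8.49 to 10.41 with A50 (median 9.93) at ILMN_1717490. It fell in 8 of 9 lines, by 0.20 on average (standard error 0.05, adjusted p = 0.00125), and its other probes, ILMN_1690494 and ILMN_1712155, changed by -0.04 and -0.01 without a call. RPL34 fell by 0.14 at ILMN_1774823, in 9 of 9 lines (adjusted p = 0.0329), and its second probe, ILMN_1706873, gave -0.10 (adjusted p = 0.150). RPL29, a heparin-binding protein of the large subunit, fell by 0.11 at ILMN_1737517 (adjusted p = 0.0303, 7 of 9 lines), and ILMN_1771051 gave -0.11 (adjusted p = 0.0579). No gene had probes called in opposite directions.

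The number of calls in each direction depended on how the arrays were scaled, while none of the 10 called probes changed sign. Scaling every array to the same median, in place of quantile normalization, left 1 rise and 7 falls among the members, with their median at -0.05, and 222 rises (0.723%) and 3517 falls (11.5%) among all probes, in place of 1674 and 1909. RPS29 stayed called (0.38), RPS15A (0.16, adjusted p = 0.143), RPL13A (0.13, adjusted p = 0.199), RPS23 (0.10, adjusted p = 0.307) and both RPL12 probes did not, and RPL28, RPL6, RPL34 and RPL29 stayed called as falls. The ratio of the 99th percentile to the median of an array, a measure of its spread, was lower with A50 than with Con in 6 of 9 lines, and its part in the calls was not tested.

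The 5 µmol/L dose of veliparib gave no called member, with 0% of all probes called, although 3 members had an unadjusted p under 0.05 in limma. The median change was 0.02, and 108 of 111 intervals lay within 0.2 of 0, against 98.4% over all probes. Set directly against A5, A50 raised 5 members and lowered 2 (7.26% of all probes were called, 3.28% higher and 3.98% lower). RPS29 was higher by 0.47, RPS15A by 0.21, RPS23 by 0.16, RPL13A and RPL12 (ILMN_1653469) each by 0.13, while RPL28 was lower (-0.22), as was RPL6 (-0.20). Under median scaling 1 rise and 2 falls remained called (0.332% and 4.49% of all probes). RPS29 (0.39), RPL28 (-0.29) and RPL6 (-0.28) kept their calls, and RPS15A (0.14, adjusted p = 0.297), RPS23 (0.10, adjusted p = 0.384), RPL13A (0.06, adjusted p = 0.737) and RPL12 (0.06, adjusted p = 0.679) lost theirs. The 7 probes named above were also called for A50 against Con, a comparison that uses the same A50 arrays.

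Cisplatin at the IC50 of each line moved no member past the test. Of all probes 1.26% were called for C+0, and none was among the 111 (6 members had an unadjusted p under 0.05 in limma). The members' changes ranged from -0.11 to 0.11 with a median of 0.00. The interval lay within 0.2 of 0 for 108 of them and for 95.1% of all probes. RPS29 (ILMN_2298818) changed by -0.04, RPS15A (ILMN_2255310) by -0.01, RPL28 by 0.05 and RPL6 (ILMN_1717490) by 0.05. RPL13A and RPS23 gave 0.10 (adjusted p = 0.176) and 0.09 (adjusted p = 0.170), each higher in 8 of 9 lines. For C+5 no member was called either (1.66% of all probes, 4 members with an unadjusted p under 0.05), with a median change of 0.00.

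Cisplatin with 50 µmol/L veliparib called 14 members, 6 higher and 8 lower (12.6%), against 17.2% of all probes (8.12% higher and 9.10% lower). The median change was 0.01. RPS29 again led the rises. ILMN_2298818 read 7.65 to 8.44 with C+50 (median 7.90), which overlaps the Con range given above, and was higher than Con in every line, by 0.23 in H187 to 0.95 in H146. The mean rise was 0.54 (standard error 0.05, adjusted p = 5.52e-12, 1.46-fold). RPS23 rose by 0.25 (adjusted p = 2.91e-08), RPS15A by 0.21 at ILMN_2255310 (adjusted p = 2.38e-06) and RPL13A by 0.20 (adjusted p = 4.80e-05), each in 9 of 9 lines. RPL37, a zinc-binding protein of the large subunit, rose by 0.15 at ILMN_1800796 (adjusted p = 0.0160, 8 of 9 lines), and its second probe gave 0.03 (ILMN_2191634, adjusted p = 0.644). RPL12 (ILMN_2116366) rose by 0.11.

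Among the falls with C+50, RPL6 (ILMN_1717490) read 8.28 to 10.49 (median 9.67). It lay below Con in all 9 lines, by 0.00 in H128 and 0.48 in DMS53 and H187, with a mean change of -0.29 (standard error 0.05, adjusted p = 1.89e-06). RPL28 read 7.08 to 8.22 (median 7.66) and changed by -0.28 (adjusted p = 5.62e-07), and DMS53 was again the 1 line where it was higher, by 0.09. RPL34 fell at both probes (-0.18 at ILMN_1706873 and -0.17 at ILMN_1774823, adjusted p = 0.00317 and 0.00329), as did RPL29 (-0.17 at both, adjusted p = 2.94e-04 and 7.87e-04, 9 of 9 lines each). RPL17 (ILMN_1655422, -0.13) and RPS7 (ILMN_1750722, -0.13) were also called, in 7 and 6 of 9 lines. RPS7 was the 1 small subunit protein among the falls. With arrays scaled to the same median, 4 rises (RPS29, RPS23, RPS15A and RPL13A) and 5 falls stayed called, beside 3.48% and 6.9% of all probes.

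Adding 50 µmol/L veliparib to cisplatin, C+50 against C+0, called 7 members higher and 7 lower, with 11.7% of all probes called (5.35% higher and 6.38% lower). RPS29 (ILMN_2298818) rose by 0.58 (standard error 0.05, adjusted p = 2.65e-12), from 7.07 to 7.95 with C+0 (median 7.39) to the C+50 values above, in 9 of 9 lines. RPL6 (ILMN_1717490) and RPL28 each changed by -0.33 (adjusted p = 1.97e-07 and 4.57e-08), and both were lower in 9 of 9 lines. RPLP1, an acidic protein of the stalk that engages elongation factors, rose by 0.27 at ILMN_1689725 (standard error 0.09, adjusted p = 0.0299), and RPL9 by 0.22 at ILMN_2408415 (standard error 0.08, adjusted p = 0.0402), each in 8 of 9 lines. The other 2 probes of RPLP1 gave 0.04 and 0.06 and those of RPL9 -0.03 and -0.01, with no call. RPS15A rose by 0.22, RPS23 by 0.16 and RPS3A (ILMN_1673638) by 0.10, while RPL34 (ILMN_1774823) changed by -0.19 and RPL17 (ILMN_1655422) by -0.17. Under median scaling 2 rises (RPS29 at 0.57 and RPS15A at 0.27) and 2 falls (RPL28 at -0.33 and RPL6 at -0.30) remained called (2.56% and 2.16% of all probes). The other 10 probes kept their sign and lost their calls, RPLP1 and RPL9 among them (adjusted p = 0.221 and 0.232). Whether C+50 departed from the sum of C+0 and A50 was tested as an interaction. No member was called (0.00977% of all probes, 13 members with an unadjusted p under 0.05 in limma), and the departures ran from -0.16 to 0.28.

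Members that serve as reference genes or have roles outside the ribosome kept intervals close to 0 with A50 and C+50, except RPL13A. RPS18, another common reference, changed by 0.03 with A50 (95% interval -0.05 to 0.12) and -0.01 with C+50 (-0.09 to 0.08). RPL5 changed by 0.00 (-0.07 to 0.08) and 0.01 (-0.06 to 0.09). RPL11 gave 0.03 and -0.07 at its 2 probes with A50 and -0.02 and -0.04 with C+50. RPS3, which can also cut DNA at abasic sites, changed by 0.02 (-0.05 to 0.09) and 0.03 (-0.04 to 0.10), and RPS6, the target of S6 kinase, by -0.01 and 0.01 with A50 at its 2 probes. RPL41, the shortest ribosomal protein, gave -0.01 and -0.04 with A50 and 0.01 and 0.02 with C+50, and none of these was called.

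No bright member probe was called with high-dose veliparib. On the quantile normalized scale, whose highest value was 14.10, 36 member probes had a mean of 13 or more. None of them was called for A50 or C+50, and their largest changes in size were 0.07 and 0.09. Quantile normalization gives every array the same set of values, so a shift shared by the brightest probes would be largely removed before the test. Under median scaling the median A50 change of all members ran from -0.25 in H209 to 0.23 in DMS114. It was not computed for the bright probes alone. Of all tested probes, 191 had a mean of 13 or more. How many of those were called was not counted, so these values do not set the members apart from other bright probes.

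After radiation 3 members were called over the 9 lines, RPLP1 and RPS28 higher and RPS9 lower. Of all probes 0.827% were called, 0.612% higher and 0.215% lower. RPLP1 and RPS28 were higher in 6 of 9 lines and RPS9 lower in 7 of 9, and the exceptions were all DMS lines. Earlier results of these data had shown such a split, so it is no independent finding here. The Rad arrays are the last of the samples listed, those of the H lines interleaved with DMS153 arrays, then those of the DMS lines. The BeadChip of an array is not given, so a difference in processing cannot be told apart from radiation. In the 6 H lines, 13 members were called higher and 4 lower (5.36% of all probes, 4.12% higher and 1.25% lower). Among the 3 DMS lines no member was called (0.173% of all probes), while 13 had an unadjusted p under 0.05 in limma. The difference between the line sets, tested as an interaction, was called for 9 members, 8 more positive in the H lines and 1 more negative (3.32% of all probes, 2.72% and 0.606%).

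RPLP1 at ILMN_1689725 read 8.17 in H146 to 8.92 in H128 among the H lines with Con and 8.68 to 9.83 in the same lines after radiation. In DMS53, DMS114 and DMS153 it read 8.95, 9.68 and 8.49 with Con and 8.65, 9.51 and 8.14 after radiation. It rose in all 6 H lines, by 0.50 to 0.92, and was lower in all 3 DMS lines, so that the changes of the sets did not overlap. The change in the H lines was 0.66 (standard error 0.07, adjusted p = 3.76e-10), that in the DMS lines -0.27 (adjusted p = 0.25), and the difference 0.93 (standard error 0.12, adjusted p = 1.52e-07). The other RPLP1 probes rose by 0.11 each in the H lines without a call (adjusted p = 0.161 and 0.137).

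RPS28, at the mRNA exit of the small subunit, showed the same split. It read 10.70 to 11.75 in the H lines with Con and 11.24 to 12.41 after radiation, against 11.75, 11.48 and 11.89 in DMS53, DMS114 and DMS153 with Con and 11.63, 11.19 and 11.72 after it. Its H line changes of 0.38 to 0.66 lay apart from the DMS changes of -0.12, -0.29 and -0.18. The mean change in the H lines was 0.52 (standard error 0.05, adjusted p = 4.07e-11) and the difference 0.72 (adjusted p = 4.31e-08).

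The radiation calls in the H lines came from both subunits, 9 rises and 1 fall among 68 large subunit probes and 4 rises and 3 falls among 43 small subunit probes. RPL9 (ILMN_2408415) rose by 0.39, RPL7 by 0.36, RPL23 by 0.35, RPL10A (ILMN_1808041) by 0.25, RPL37A (ILMN_2051519) by 0.23, RPL21 by 0.21, RPL14 (ILMN_1726460) by 0.18 and RPL5 by 0.13, each in 6 of 6 lines except RPL9, with 5. Of the small subunit, RPS27 (ILMN_1696839) rose by 0.21 and RPS3A by 0.18 and 0.17 at 2 of its probes. The remaining probes of RPS3A, RPS27, RPL9, RPL10A, RPL37A and RPL14 were not called. Over all 9 lines RPL10A changed by 0.11 at ILMN_1808041 but by -0.05 at ILMN_2154566, while RPL14 gave 0.09 and 0.07 at its 2 probes. The falls in the H lines were RPS9 (-0.27 at ILMN_2038772 and -0.21 at ILMN_1749447), RPL4, which lines the peptide exit tunnel (-0.20), and RPS3 (-0.14). With arrays scaled to the same median, none of these falls was called. RPL10A, RPL23, RPL21, RPL7, RPL14 and RPL41 (ILMN_1710001) also differed between the line sets, by 0.42, 0.41, 0.40, 0.39, 0.26 and 0.28, and RPS9 (ILMN_2038772) by -0.29.

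**Figure D3:**
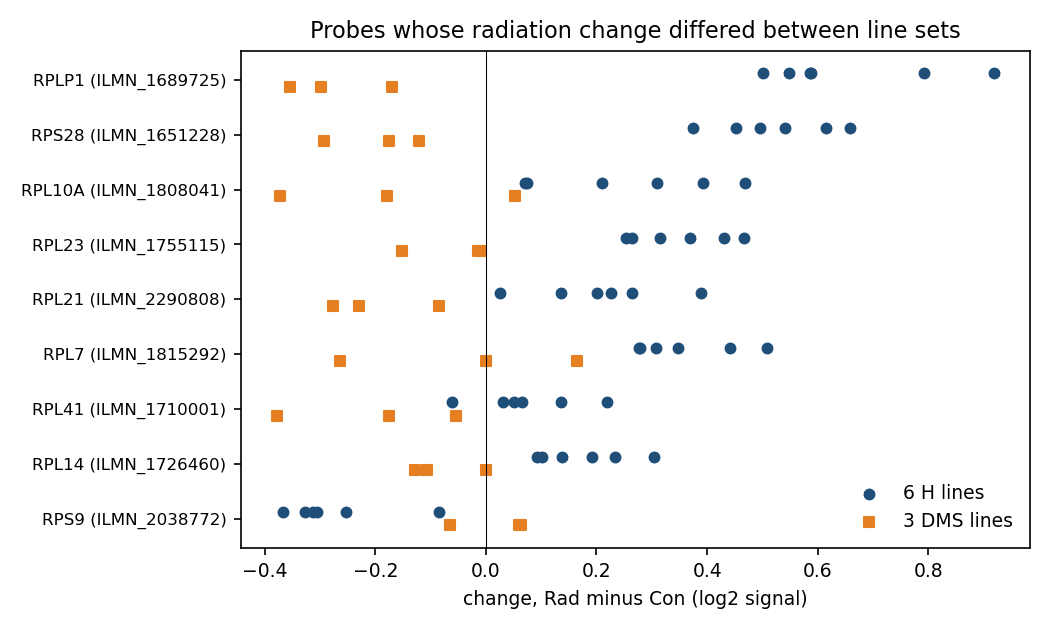
Change after radiation (Rad minus Con, log2 signal) of the 9 member probes whose change differed between line sets, with 6 H lines as circles and 3 DMS lines as squares. RPLP1 and RPS28 show the widest gap, with H lines at 0.38 to 0.92 and DMS lines at -0.35 to -0.12.

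The radiation counts turned on the scaling. With arrays scaled to the same median, the members' median change was 0.11 in H lines and -0.24 in DMS lines, 32 members were called higher in the H lines (8.26% of all probes), 41 lower in the DMS lines (7.70%), and 79 differed between the sets (20.2%). Under quantile normalization those medians were 0.00 and -0.03. The ratio of the 99th percentile to the median of an array rose after radiation in 5 of 6 H lines (change in log2 of -0.03 to 0.24) and fell in 3 of 3 DMS lines (-0.33 to -0.05), and its part in these counts was not tested. RPLP1 and RPS28 were called in the H lines and for the difference under both scalings, whereas RPS9 (ILMN_2038772) turned from -0.29 to 0.14 for the difference.

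**Figure D4:**
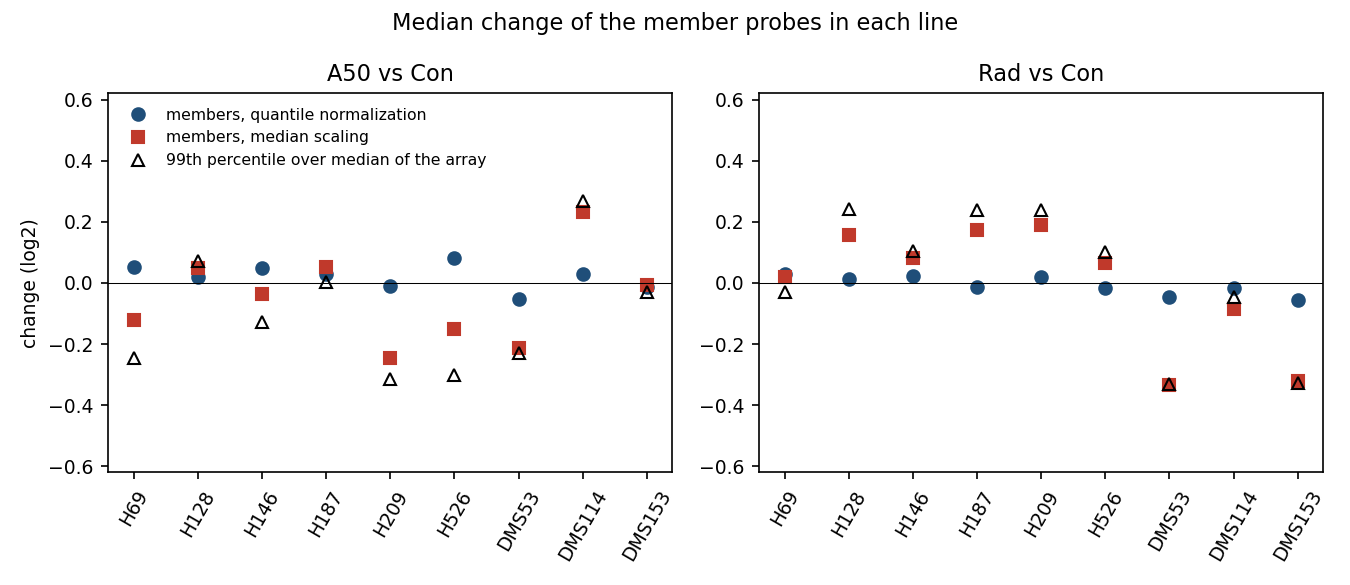
Median log2 change of the 111 member probes in each line under quantile normalization (circles) and median scaling (squares), with the change of the array's 99th percentile over its median (triangles), for A50 and Rad. The circles stay within 0.08 of 0 while the squares reach 0.23 and -0.33, near the triangles of the same lines.

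Lines differed far more than treatments. Of the sum of squares of a member probe, a median of 90.5% lay between lines and 1.39% between conditions, against 86.6% and 2.53% over all tested probes, and the conditions took the larger share at 1 member only. As a class the members were highest in H128, the line of doubtful identity, whose median deviation from the mean of the probes was 0.23 ± 0.02 (SD over 7 conditions), followed by DMS114 at 0.10 ± 0.02 and DMS53 at 0.06 ± 0.03. They were lowest in H526 (-0.13 ± 0.03), H187 (-0.10 ± 0.02) and DMS153 (-0.09 ± 0.01), and in that order each differed from the next by no more than the larger of their SDs. H146 (0.03 ± 0.01), H209 (-0.02 ± 0.03) and H69 (-0.03 ± 0.03) lay between. With arrays scaled to the same median, H128 was again highest (0.25) and H526 lowest (-0.14), but the order between them moved. H146 and DMS114 stood at 0.12, DMS53 at 0.00 ± 0.10, H187 at -0.03 ± 0.04, H69 at -0.06, H209 at -0.10 ± 0.12 and DMS153 at -0.13. H128 held the highest mean of 32 of the 111 probes, and H187 and H526 the lowest of 20 each. The subunits lay apart in opposite directions in different lines. Large subunit probes were at 0.12 and small subunit probes at -0.05 in DMS53, against -0.17 and -0.02 in H187 and -0.18 and -0.06 in H526. The 9 lines carry 1 culture each, so these levels are a description with no test.

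Single probes spread much wider. RPS23 had the largest range of line means, from 7.11 ± 0.07 in H209 to 10.47 ± 0.11 in H69 (SD over 7 arrays), and the next lowest line was DMS114 at 8.83, so that H209 stood alone. RPS23 had a single probe, and 7.11 is near the dim end of the members, whose lowest mean level was 6.59. The level of the gene and a failure of its probe in H209 cannot be told apart here. RPL29 read 10.32 ± 0.14 in DMS114, 9.31 in H128 and 8.57 in DMS53, and 6.98 to 7.75 in the other 6 lines at ILMN_1771051. ILMN_1737517 gave the same order of these 3 lines (10.30, 9.33 and 8.58). RPS7, mutated in Diamond-Blackfan anaemia, ranged from 8.17 in H69 and 8.24 in DMS153 to 10.56 in H128 at ILMN_2070072. RPS24, another gene of that disease, ranged from 9.01 in H526 to 11.38 in DMS114 at ILMN_2399893, and RPL34 from 8.21 in H187 to 10.60 in H128 at ILMN_1774823. Within a line the SD over 7 arrays of these 6 probes was at most 0.22.

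**Figure D5:**
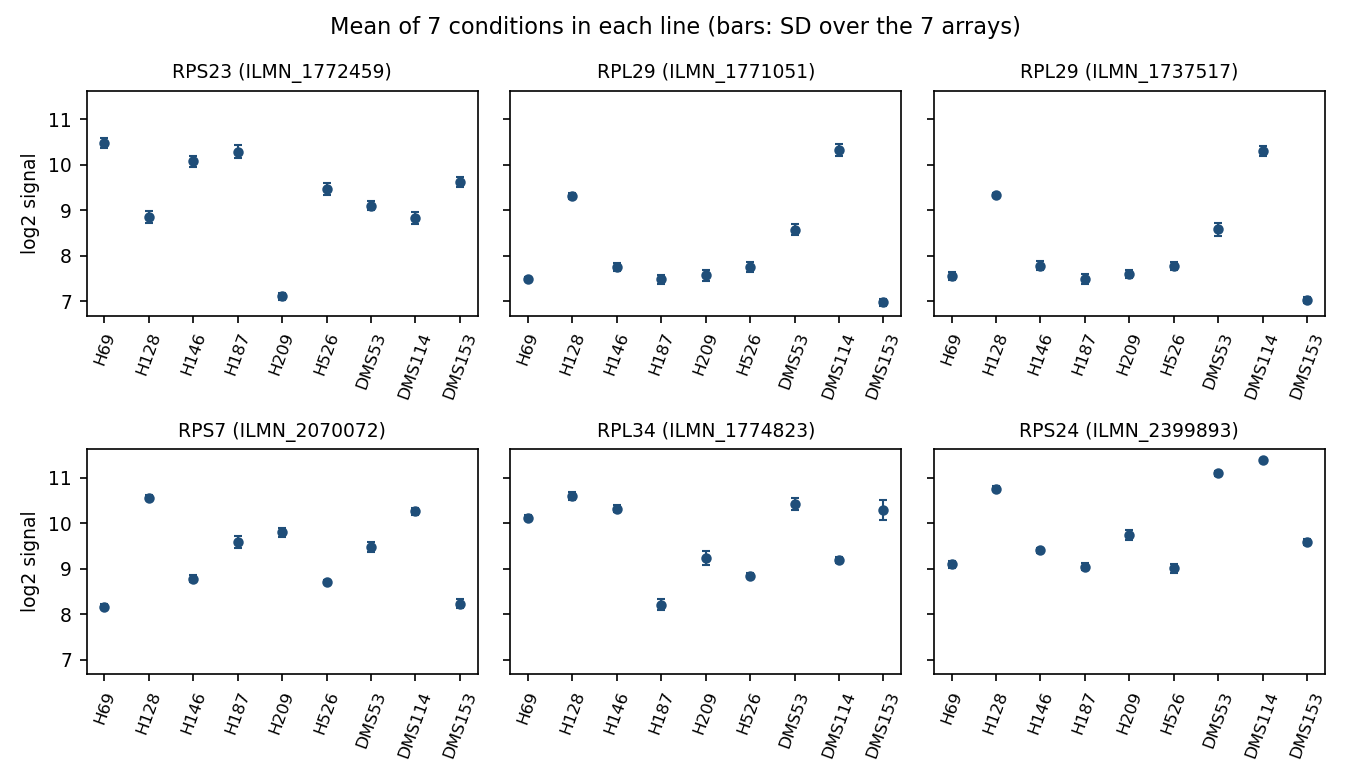
Mean log2 signal over 7 conditions in each of 9 lines for the 6 member probes with the widest range, with bars for the SD over the 7 arrays. RPS23 is near 7.11 in H209 alone, and both RPL29 probes peak in DMS114.

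In all, 46 member probes had a range of line means over 1 log2 unit and 11 a range over 2. The 36 probes with a mean of 13 or more had a median range of 0.55 and the 75 below it 1.12. Of 58 pairs of probes for the same gene (32 genes), the line means correlated with a median r of 0.79 over 9 lines, 19 pairs were above 0.9 and 1 was below 0, RPL36A at -0.25. The RPL29 pair gave 1.00 and the RPS7 pair 1.00, while the RPS29 probe that rose with veliparib gave 0.32 to 0.34 with the other 3. These correlations are descriptions over lines that share arrays.

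Genes that work beside the ribosomal proteins were counted from lists. Of 75 probes for ribosome biogenesis factors, 14 rose and 2 fell with A50, and 22 rose and 2 fell with C+50, with list medians of 0.03 and 0.04. Over all probes 5.45% rose and 6.22% fell with A50, and 8.12% rose and 9.10% fell with C+50. They were led by POLR1D, a subunit shared by RNA polymerases I and III (0.55 with C+50 at ILMN_1742427, but -0.28 at ILMN_1767422), the rRNA methyltransferase NOP2 (0.34 with C+50) and the large subunit export adaptor NMD3 (0.31 with C+50 at ILMN_2232430). With arrays scaled to the same median the counts were 1 and 4 with A50 (0.723% and 11.5% of all probes) and 5 and 1 with C+50 (3.48% and 6.9%). Of 34 probes for factors whose mRNAs also begin with a TOP tract, 5 rose and 1 fell with A50, and 8 rose and 3 fell with C+50. EEF1D, of the elongation factor 1 exchange complex, rose by 0.21 with A50 at ILMN_1782543, and the initiation factor EIF4B by 0.16. The largest fall was HNRNPA1, a splicing factor on the same list (-0.39 with A50 and -0.50 with C+50 at ILMN_1663447). With arrays scaled to the same median, these counts were 0 and 2 with A50 and 2 and 2 with C+50.

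Of 108 probes of mitochondrial ribosomal proteins, 8 rose and 9 fell with A50 and 8 rose and 19 fell with C+50, beside the same shares of all probes as above, and the falls were led by MRPL39 (-0.32 and -0.39). Median scaling gave 0 and 19 with A50, where 0.723% of all probes rose and 11.5% fell, and 1 and 4 with C+50. Among 11 probes of cytosolic paralogs outside the rule, 1 rose and 1 fell with A50, and 1 rose and 4 fell with C+50. RPS27L, a p53 target, changed by -0.17 with A50 and -0.16 with C+50. No probe of the neuroendocrine, non-neuroendocrine SCLC, fibroblast or leucocyte marker lists was called for A50, C+50 or Rad over the 9 lines. With arrays scaled to the same median, 1 probe of the fibroblast list, for THY1, was called lower with A50.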

How the data were processed

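The arrays were read out by the authors in GenomeStudio 2010.3. Deposited values are the linear intensity of a probe on 1 array, a mean over beads, before and after quantile normalization by the authors, and the deposited p-value is their software's detection p. Whether background was subtracted is not given in the sources used here, nor is the BeadChip of an array, so that batch was not tested. Conditions and lines came from the sample labels. Symbols came from the platform annotation: 21620 kept probes had 1 symbol, 4 several, and 9092 none used here.

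Unnormalized intensities were quantile normalized in limma 3.58.1 (R 4.3.3, with 1.17.8 of its package data.table) and log2 transformed, which stayed within 0.015 in log2 of the values the authors normalized. A probe was kept where at least 4 of 63 arrays detected it at p under 0.05. All 63 arrays were fitted by lmFit and eBayes with a fixed term for each cell line, and two-sided p-values were adjusted by Benjamini-Hochberg over all kept probes. Arrays pair by cell line: their deviations from the condition means correlated at 0.9285 or more within a line. The number of arrays limits precision, and the median standard error of a member's change was 0.04. As the only replicates are cell lines, p-values set a change against its variation from line to line, pooled over the 7 conditions. Differences in level between lines do not enter, since the term for each line removes them.

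Named genes were up to 5 rises and 5 falls per comparison among called probes moved the same way in at least 8 of 9 lines, the 6 probes of widest range over lines, and the members among a list of genes with other roles (10 probes of 7 genes). The radiation genes, RPL29 with A50, RPL17 and RPS7 with C+50 and the remaining probes named fell outside this rule and were named after their values were seen. The members, lists and line sets were chosen with earlier results of these data known. Alternatives were neqc (offset 16), median scaling, the authors' values, a stricter filter (detected at p under 0.01 by 32 arrays or more), no filter, the compared arrays alone, no block, 1 probe per gene, and each line left out. Python 3.11.15 and matplotlib 3.10.9 drew the figures.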

Additional observations from a re-analysis of the deposited data

Results flagged for a closer look

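In 61 groups of 9 lines, the highest or lowest line stood far from the rest in 3, where chance gives about 1 in 20. The change of RPL28 with A50 was 0.1849 in DMS53, above 0 where the other 8 lines lay below. RPS15A (ILMN_2255310) rose least with A50 in H69, by 0.106. The line mean of RPS23 was 7.111 in H209, far under the rest.

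The change after radiation differed between the H and the DMS lines, by a test of the difference in limma, for 9 member probes. The differences were 0.9293 for RPLP1 (ILMN_1689725), 0.7191 for RPS28, 0.4207 for RPL10A, 0.4081 for RPL23, 0.404 for RPL21, 0.393 for RPL7, 0.2755 for RPL41 (ILMN_1710001), 0.2553 for RPL14 and -0.2935 for RPS9 (ILMN_2038772). The spread of the arrays moved in opposite directions in the line sets, as given above, and its part was not tested.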

How the results depend on the processing

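Without the cell line as a block (no replicate block), the count of called members was 0 in every comparison, including A50, A50 against A5, C+50, C+50 against C+0, Rad, Rad in the H lines and the difference between line sets. With median scaling it was 9 for C+50, 3 for A50 against A5, 4 for C+50 against C+0, 0 for Rad, 32 for Rad in the H lines, 41 in the DMS lines and 79 for their difference, and RPS9 (ILMN_2038772) turned to 0.1353 (adjusted p = 0.4874). With 1 probe per gene (67 probes, so fewer could be called) the counts were 6 for A50, 8 for C+50, 3 for A50 against A5, 6 for C+50 against C+0, 1 for Rad, 10 for Rad in the H lines and 4 for the difference. For Rad over 9 lines, neqc gave 1, the stricter filter 7 and the compared arrays alone 0. Leaving out each line in turn gave 8 to 11 for A50, 5 to 9 for A50 against A5, 12 to 16 for C+50, 11 to 16 for C+50 against C+0, 0 to 10 for Rad, 12 to 19 for Rad in the H lines and 4 to 12 for the difference between sets. The Rad count was 0 without H69, H128, H146, H187, H209 or H526, 10 without DMS53, 7 without DMS114 and 10 without DMS153, and the difference between sets gave 4 without DMS153. Save for some counts with median scaling, the share of all probes called in these runs was not counted. A moved count is thus not a result about the members. The causes were not tested. Neqc raised the changes of dim probes over 1.5 times: with C+50, RPS29 (ILMN_2298818) to 0.88, RPL37 (ILMN_1800796) to 0.29, RPL28 to -0.45 and RPL29 to -0.26 at both probes, and with A50 RPL28 to -0.40. Under the authors' values and the stricter filter, all 54 single calls of members stayed on their side of the threshold.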
